A study of Mus musculus with 4 samples.

Results

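The 39 genes described here encode the folding and export machinery of the endoplasmic reticulum (ER) and the sensors that adjust it. They were taken by symbol from the deposited feature list, which held 22583 features, and all 39 were found. Their levels were read from single-cell RNA sequencing of mouse trachea, in secretory-like cells set against basal-like and ciliated-like cells of the same library. Tracheal cells of adult 129S6/SvEvTac mice aged 5 to 8 months were pooled into 1 library for each of 4 groups. The groups were bgh mice with a mutated Spef2 (5 tracheas), Cfap54gt/gt mice, in which Cfap54 is gene-trapped (6 tracheas), nm1054 mice, which lack Cfap221 (6 tracheas), and wild-type mice (6 tracheas). The mutated genes encode proteins of the central pair apparatus of motile cilia, and the mutant lines are models of primary ciliary dyskinesia. Cells were freed with pronase, plated for some hours to separate fibroblasts, cleared of dead cells and loaded at 8500 cells for at least 5000. The barcodes carried a library number from 1 to 4 that no source used here tied to a genotype, so no contrast of the mutants with wild-type was made. Each library is 1 pool without a replicate, and no test between cell classes or libraries was run. Log2 ratios and calls between cell classes were taken inside each library, while ratios given as summed pool the 4 libraries.

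Proteins bound for secretion are guided by the signal recognition particle to the Sec61 channel, cross the ER membrane, lose their signal peptide to the signal peptidase, and fold with the help of chaperones and protein disulfide isomerases. Proteins that fail to fold are sent back to the cytosol for degradation, and escaped chaperones are returned from the Golgi by KDEL receptors. The sensors IRE1, PERK and ATF6 raise the level of this machinery when unfolded proteins build up. Airway secretory cells release secretoglobins, mucins and antimicrobial proteins, basal cells are the progenitors of the epithelium, and ciliated cells move the mucus.

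Libraries 1 to 4 held 4269, 4202, 7360 and 5836 barcodes with 44520016, 39658153, 53491773 and 47459846 unique molecular identifiers (UMIs, each counting 1 captured RNA molecule). After filters, 19471 cells remained in 21 clusters, and 52 barcode sequences occurred in more than 1 library. The secretory-like class held 6129 cells, the basal-like class 5053 cells and the ciliated-like class 4760 cells. Of the ciliated-like cells, 3116 lay in 1 cluster with a median of 1992 UMIs. A further cluster of 1810 cells had 10 of 10 ciliated markers up beside secretory ones, and a median of 17866 UMIs. It was left out of every class as mixed. All 8 secretory markers were up in each of the 4 secretory-like clusters, at least 7 of 10 basal markers in each of the 3 basal-like clusters, and at least 9 of 10 ciliated markers in each of the 3 ciliated-like clusters. Cells were clustered without the 39 genes, and no cell type marker was among them. A median secretory-like cell had 11071 UMIs, a basal-like cell 4053 and a ciliated-like cell 2525.5. Secretory-like cells also carried fewer immediate early transcripts (Fos, Jun, Egr1, Ier2 and Atf3 together), at 1153 CPM (a gene's UMIs scaled to a common total of UMIs outside secretoglobins), against 6154 CPM in basal-like and 8425 CPM in ciliated-like cells. Such transcripts are known to be induced while tissue is dissociated, and their part in the results below was not tested.

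The 39 genes together took a similar share of the RNA in the classes, and the order of the classes depended on what was counted as the total. Secretoglobins made up 26.1, 21.4, 20.7 and 18.3% of UMIs in secretory-like cells of libraries 1 to 4, and 0.635% in basal-like and 0.632% in ciliated-like cells over all libraries. Of UMIs outside secretoglobins, the 39 genes took 0.548, 0.502, 0.519 and 0.557% in secretory-like cells of libraries 1 to 4. The shares were 0.606, 0.599, 0.579 and 0.599% in basal-like cells and 0.487, 0.573, 0.542 and 0.520% in ciliated-like cells. Secretory-like cells thus lay below basal-like cells in every library, and on either side of ciliated-like cells. With all UMIs as the total, the share was 0.418% in secretory-like cells, 0.591% in basal-like and 0.517% in ciliated-like cells, the lowest in secretory-like cells of every library. With 38 other secreted products left out as well, it was 0.704% in secretory-like cells, 0.604% in basal-like and 0.536% in ciliated-like cells, the highest in secretory-like cells of every library. Per cell, the 39 genes gave 53.1 UMIs in secretory-like cells, 28.7 in basal-like and 21.1 in ciliated-like cells, in cells of the unequal depths given above.

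**Figure D1:**
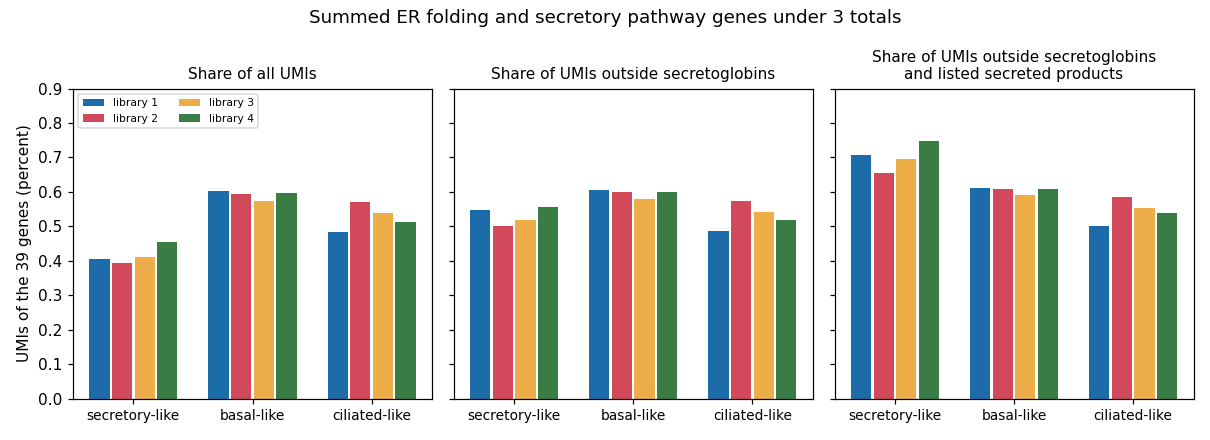
UMIs of the 39 genes as a percent of 3 totals (y axis) in secretory-like, basal-like and ciliated-like cells (x axis), with 1 bar for each library. Secretory-like bars are the lowest under all UMIs (0.418% over all libraries) and the highest once secretoglobins and listed secreted products are left out (0.704%).

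Levels of single genes are given below on the same CPM scale, and ratios as log2 with 1 CPM added. A gene was called where it differed at least 2-fold the same way in all 4 libraries, among genes with at least 50 UMIs over both classes. Of the 39 members, 38 passed that minimum. Derl3, a component of ER-associated degradation, was the exception, with 20 UMIs in secretory-like, 8 in basal-like and 11 in ciliated-like cells.

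Against basal-like cells, 2 of 38 members were called higher in secretory-like cells (Creb3l1 and Sec11c) and 1 was called lower (Ddit3). Of the 11654 genes tested, 3.24% were called higher and 9.15% lower, so the share of members called was near or below that of all genes. The median log2 ratio was -0.08 over the 38 members and -0.20 over all genes tested. By any size, 14 members were higher in all 4 libraries and 18 were lower, against 24.1% and 47.5% of all genes. These directions shift with the total, since the median of all genes was -0.48 with all UMIs and 0.12 with the listed secreted products left out. Under all 3 totals and in all 4 libraries, 8 members were higher (Xbp1, Ern2, Creb3l1, Sdf2l1, Sec61b, Sec61g, Ssr4 and Sec11c), as were 12.9% of all genes. Another 6 members were lower under all 3 (Atf6, Ddit3, Hspa5, Dnajb9, Herpud1 and Ssr1), as were 29.1% of all genes.

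Against ciliated-like cells, 5 of 38 members were called higher in secretory-like cells (Ern2, Creb3l1, Dnajb9, Kdelr2 and Ssr1) and 2 were called lower (Ddit3 and Creld2). Of the 11990 genes tested, 4.45% were called higher and 21.6% lower. The median log2 ratio was -0.06 over the members and -0.46 over all genes, and 30 of 38 members lay above the median of all genes. By any size, 13 members were higher in all 4 libraries and 9 were lower, against 20.1% and 57.6% of all genes. Under all 3 totals, 12 members were higher in every library (12.7% of all genes) and 7 were lower (43.9% of all genes). This comparison uses the same secretory-like cells as the one with basal-like cells, so the values of both are given side by side for each role.

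**Figure D2:**
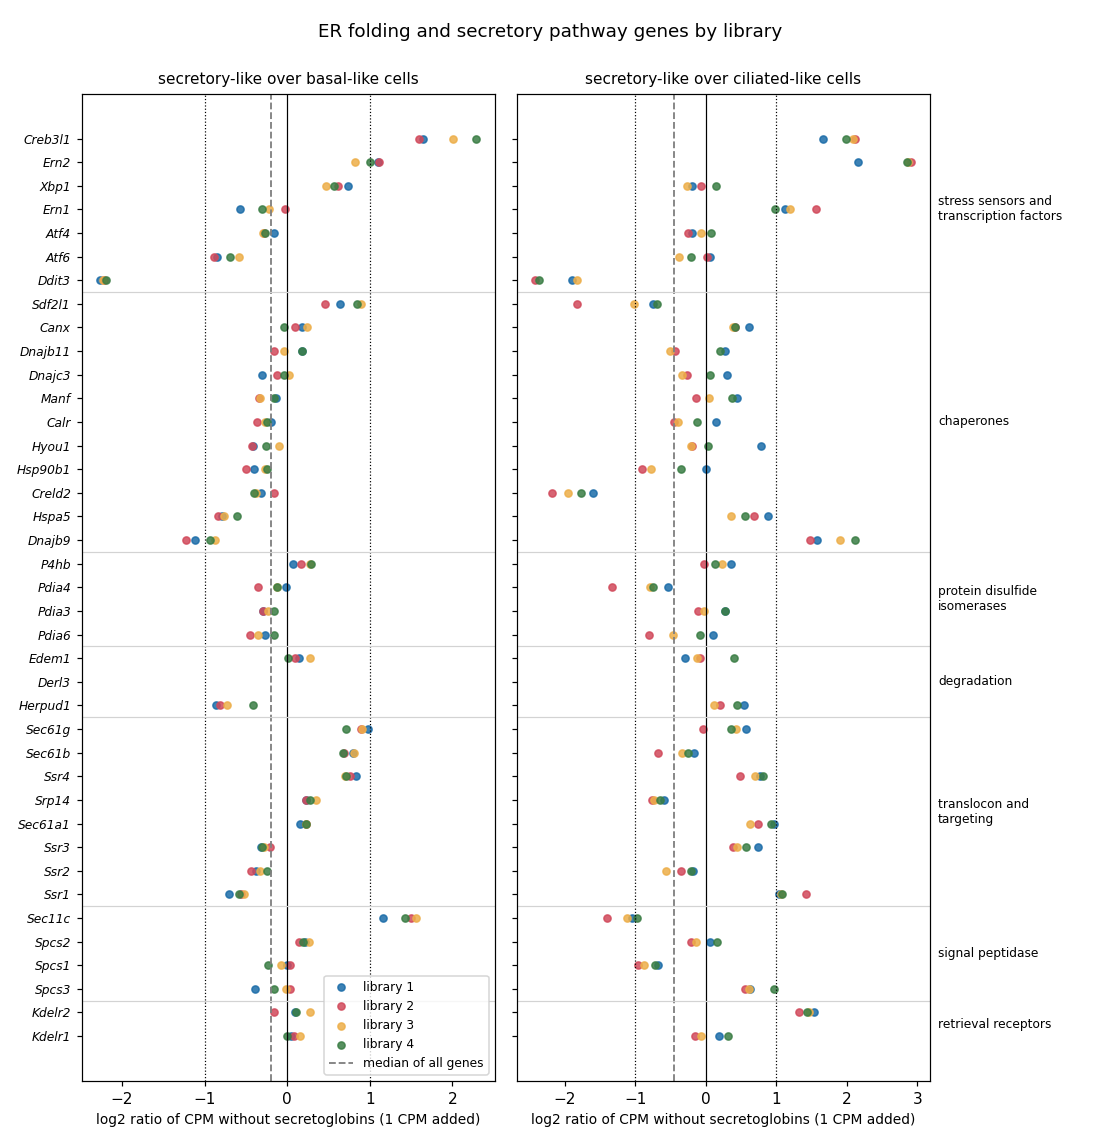
Log2 ratio of secretory-like over basal-like cells (left) and over ciliated-like cells (right) on the x axis for each gene (y axis, grouped by role), with 1 point for each library. Dotted lines mark 2-fold and the dashed line the median of all genes; Derl3 is blank because it had too few UMIs. Creb3l1 lies right of the 2-fold line in both panels and Ddit3 left of it, while Dnajb9 changes side between the panels.

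Among the sensors and transcription factors, Creb3l1 and Ern2 stood highest in secretory-like cells. Creb3l1 is a membrane-bound transcription factor of the ATF6 kind that is cut and released in secretory cells. It had 8.03, 8.90, 15.2 and 9.97 CPM in secretory-like cells of libraries 1 to 4. Basal-like cells had 1.89, 2.28, 3.06 and 1.25 CPM, and ciliated-like cells 1.84, 1.28, 2.82 and 1.75 CPM. The classes did not overlap. Summed over libraries, the ratio was 5.08-fold over basal-like cells (95% interval 3.82 to 6.87) and 5.62-fold over ciliated-like cells (4.04 to 8.06). Such intervals cover counting error only.

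Ern2 encodes IRE1 beta, the form of IRE1 found in mucosal epithelia. It had 4.74, 6.52, 8.14 and 7.67 CPM in secretory-like cells of libraries 1 to 4, against 1.68, 2.47, 4.17 and 3.34 CPM in basal-like cells. Ciliated-like cells held 4 Ern2 UMIs in all, with 2, 0, 1 and 1 in libraries 1 to 4. Ern2 was thus called higher than in ciliated-like cells, with a summed ratio of 33.2 (95% interval 12.9 to 122). Over basal-like cells the log2 ratio had a median of 1.05 and a lowest value of 0.82, so Ern2 was not called there. Of secretory-like cells, 6.31% had an Ern2 UMI, against 0.0840% of the shallower ciliated-like cells.

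Ern1, the broadly expressed IRE1 alpha, lay above ciliated-like and below basal-like cells in every library. It had 15.3, 18.0, 13.0 and 11.4 CPM in secretory-like cells, against 6.50, 5.44, 5.13 and 5.25 CPM in ciliated-like cells. The median log2 ratio was 1.16 and the lowest 0.99, just short of a call. Basal-like cells had 23.3, 18.5, 15.3 and 14.3 CPM of Ern1. Xbp1, whose messenger RNA is spliced by IRE1, had 96.6, 80.2, 88.6 and 94.0 CPM in secretory-like cells, against 57.8, 52.0, 63.5 and 63.2 CPM in basal-like cells. Its median log2 ratio was 0.59 over basal-like cells and -0.13 over ciliated-like cells, where the libraries had both signs. Spliced and unspliced Xbp1 cannot be told apart in these counts.

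Ddit3, the transcription factor CHOP that acts late in ER stress, was the member with the largest deficit in secretory-like cells. It had 13.7, 16.4, 18.1 and 13.2 CPM in secretory-like cells of libraries 1 to 4. Basal-like cells had 69.5, 80.1, 88.7 and 64.2 CPM and ciliated-like cells 53.7, 92.1, 66.9 and 72.5 CPM, all above every secretory-like value. Summed over libraries, Ddit3 was 4.93-fold lower in secretory-like than basal-like cells (95% interval 4.56 to 5.34) and 4.39-fold lower than in ciliated-like cells (4.04 to 4.78). A second feature named Ddit3 held 0 UMIs. Atf4, the factor translated when PERK or a related kinase is active, had a median log2 ratio of -0.27 over basal-like and -0.14 over ciliated-like cells. Atf6, the membrane-bound sensor, had -0.77 over basal-like and -0.09 over ciliated-like cells.

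**Figure D3:**
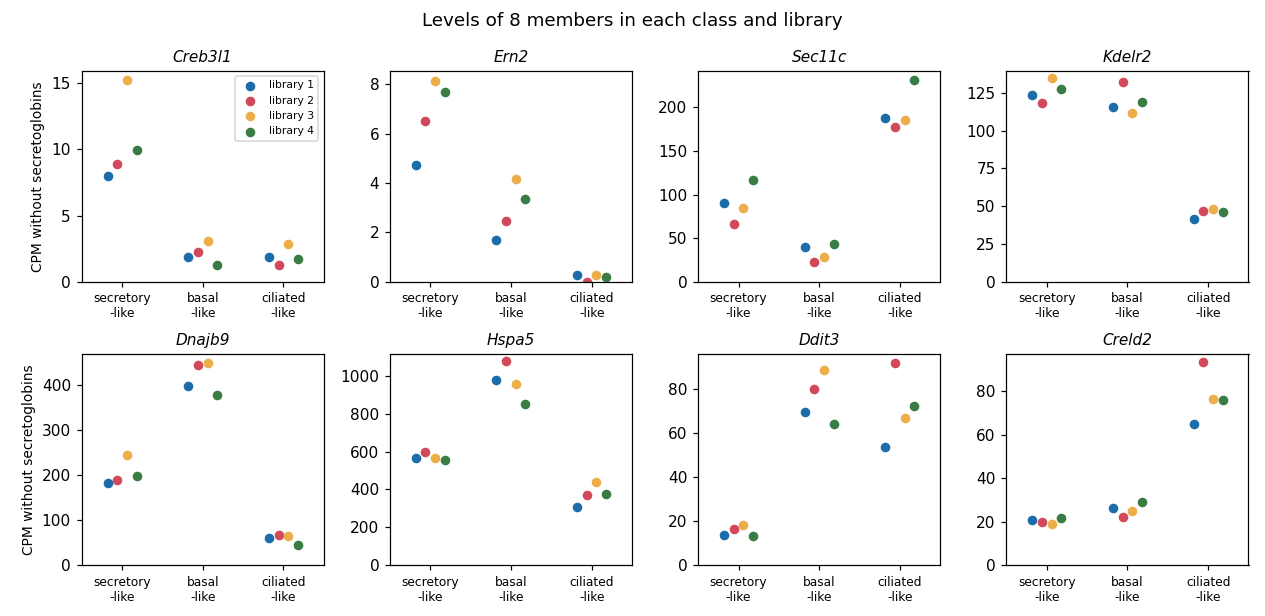
CPM of UMIs outside secretoglobins (y axis, from 0) for 8 members in secretory-like, basal-like and ciliated-like cells (x axis), with 1 point for each library. Secretory-like points are above both other classes for Creb3l1 and Ern2, below both for Ddit3, and between them for Sec11c, Dnajb9 and Hspa5.

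Of the chaperones, Dnajb9 and Hspa5 stood between basal-like and ciliated-like levels in secretory-like cells. Dnajb9, a J-domain partner of BiP that also holds IRE1 inactive, had 183, 189, 245 and 197 CPM in secretory-like cells of libraries 1 to 4. Basal-like cells had 398, 445, 449.5 and 378 CPM and ciliated-like cells 60.4, 67.2, 64.6 and 44.7 CPM. Secretory-like cells therefore lay between the other classes in every library, with a median log2 ratio of -1.03 over basal-like cells, not called, and 1.75 over ciliated-like cells, called higher. Hspa5 encodes BiP, the main ER chaperone, and followed the same order. It had 565, 599.8, 564 and 557 CPM in secretory-like cells, against 979, 1077, 956 and 850.1 CPM in basal-like and 305, 371, 439.7 and 378 CPM in ciliated-like cells. Its median log2 ratios were -0.78 and 0.62, neither called.

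Creld2 and Sdf2l1 stood out for their levels in ciliated-like cells. Creld2, a secreted ER stress-inducible protein, had 20.8, 19.9, 19.0 and 21.7 CPM in secretory-like cells, against between 22.3 and 29.0 CPM in basal-like cells. Ciliated-like cells had 64.9, 93.4, 76.6 and 76.2 CPM of Creld2, which made it 3.68-fold lower in secretory-like cells (95% interval 3.41 to 3.98, summed over libraries). Sdf2l1, a cofactor of BiP, had 18.0, 13.4, 14.8 and 23.7 CPM in secretory-like cells, against 11.1, 9.51, 7.50 and 12.8 CPM in basal-like and 31.0, 50.2, 31.0 and 39.1 CPM in ciliated-like cells. It lay above basal-like and below ciliated-like cells in every library, with median log2 ratios of 0.74 and -0.89, neither called. The other 7 chaperones (Hsp90b1, Calr, Canx, Hyou1, Dnajb11, Dnajc3 and Manf) had median log2 ratios from -0.33 to 0.14 over basal-like cells and from -0.56 to 0.41 over ciliated-like cells.

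Many chaperone genes carry an ER stress response element in their promoter, to which ATF6 and XBP1 bind together with NF-Y. Promoter windows from RefSeq (mouse build GRCm38.p6, not the build of the counts), 250 bases before to 50 bases after a gene's start, were found for 29 of the 39 members. The element ERSE was searched as CCAAT and CCACG with any 9 bases between them, on both strands. It was in 8 of the 29 (Hspa5, Hsp90b1, Calr, Canx, Dnajc3, Creld2, Pdia6 and Derl3). Of all genes with a window it was in 37 of 27025, and in 0.119% of all 32851 windows. The related ERSE-II, searched as ATTGG and CCACG with any 1 base between them, was in Herpud1 and Dnajb11. It was in 12 of the 27025 genes and in 0.0365% of all windows. Members were listed for roles that include ER chaperones, so their high share is not an independent result. The UPRE core TGACGTGG was in 0 of the 29 and in 0.676% of all, and the ATF4 element TGATGNAA in Herpud1 and Kdelr1 and in 3.97% of all. The stretches around the matches of 5 genes are shown 5′ to 3′ on the gene's strand, with matches in capitals. Among members with an ERSE or ERSE-II match that passed the UMI minimum, Hspa5 and Herpud1 had the lowest ratios over basal-like cells, Canx the highest and Pdia6 the median one, and Creld2 had the lowest over ciliated-like cells. Hspa5 (chr2:34772015-34772053, plus strand), Creld2 (chr15:88819510-88819548, plus), Pdia6 (chr12:17266481-17266519, plus) and Canx (chr11:50325790-50325828, minus) hold an ERSE. Herpud1 (chr8:94386307-94386397, plus) holds the ATF4 element on the opposite strand and, nearer the start, ERSE-II.
Hspa5: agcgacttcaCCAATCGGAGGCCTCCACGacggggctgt
Creld2: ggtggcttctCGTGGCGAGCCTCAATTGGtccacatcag
Pdia6: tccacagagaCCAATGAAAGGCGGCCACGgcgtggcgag
Canx: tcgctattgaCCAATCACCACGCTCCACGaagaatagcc
Herpud1: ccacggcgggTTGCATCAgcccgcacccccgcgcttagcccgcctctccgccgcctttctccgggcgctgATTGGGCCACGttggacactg

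The direction of members with an ERSE or ERSE-II match over basal-like cells depended on the total, as it did for all genes. Under each total the median of members with a match lay below those of all genes and of members without one. Of the 10, 9 passed the UMI minimum. With secretoglobins left out, 6 of the 9 were lower in all 4 libraries and 0 higher, beside 47.5% and 24.1% of all genes, and their median log2 ratio was -0.31, beside -0.20 for all genes. With listed secreted products left out as well, the median was 0.06, 7 of the 9 had a median above 0, and Hspa5 and Herpud1 were those below 0. The median was then 0.12 for all genes and 0.42 for the 19 members with a window but neither match. With all UMIs as the total, all 9 were lower in every library. Their median was -0.68, beside -0.48 for all genes and -0.27 for those 19 members. Of the 19 members with a window but neither match, 8 were lower and 10 higher in all 4 libraries with secretoglobins left out (median 0.06), and of the 10 with no window 4 were lower and 4 higher (median 0.01). Over ciliated-like cells the medians were -0.12 with a match, -0.04 without and 0.42 with no window. Matches are a description of these letters, and no binding was measured.

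**Figure D4:**
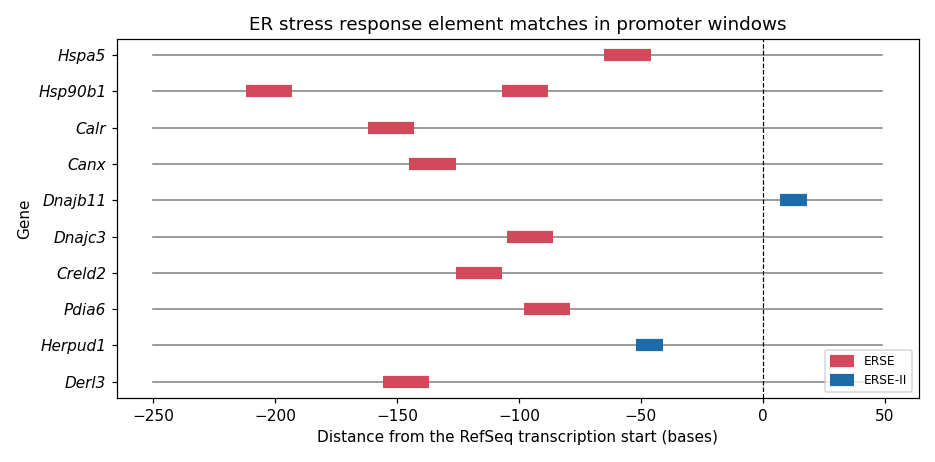
Positions of ERSE and ERSE-II matches (coloured blocks) in the promoter windows of 10 members (rows), as the distance in bases from the RefSeq start (dashed line). All matches but that of Dnajb11 lie upstream of the start, and Hsp90b1 has a pair of them.

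The protein disulfide isomerases, which form and rearrange disulfide bonds, were close to level, apart from Pdia4. It was lower than in ciliated-like cells in every library under all 3 totals. Over basal-like cells the median log2 ratios were 0.22 for P4hb, -0.12 for Pdia4, -0.26 for Pdia3 and -0.31 for Pdia6. Over ciliated-like cells they were 0.18 for P4hb, 0.12 for Pdia3, -0.28 for Pdia6 and -0.77 for Pdia4. Pdia4 had 26.7, 18.4, 23.4 and 26.1 CPM in secretory-like cells, against 39.2, 47.7, 41.3 and 44.5 CPM in ciliated-like cells. The classes did not overlap, but the ratio was under 2-fold in 3 of the 4 libraries. Pdia6 had 131, 95.2, 93.4 and 140.04 CPM in secretory-like cells, against 157, 130.4, 119 and 156 CPM in basal-like and 122, 167, 129.9 and 148 CPM in ciliated-like cells. It lay below basal-like cells in every library and on either side of ciliated-like cells. Pdia3, which acts on glycoproteins held by calnexin and calreticulin, had 230.4, 191, 205 and 236 CPM in secretory-like cells, against 281, 235, 241 and 265 CPM in basal-like and 191, 207, 209 and 196 CPM in ciliated-like cells.

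Of the degradation genes, Herpud1, a membrane protein of the ubiquitin ligase complex, had 184, 177, 192 and 233 CPM in secretory-like cells, against 337, 312, 319 and 309.6 CPM in basal-like and 126, 153, 178 and 170.1 CPM in ciliated-like cells. It thus lay between the other classes in every library, as Dnajb9 and Hspa5 did. Edem1, which draws misfolded glycoproteins towards degradation, had 11.7, 11.4, 11.6 and 11.4 CPM in secretory-like cells, against 10.5, 10.7, 9.44 and 11.3 CPM in basal-like and 14.6, 12.2, 12.8 and 8.36 CPM in ciliated-like cells. Its classes lay close together, with median log2 ratios of 0.12 over basal-like and -0.11 over ciliated-like cells.

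The channel and its partners were the role with the highest median over basal-like cells, 0.24 over 8 members, against -0.20 for all genes. With all UMIs as the total this median was -0.08, against -0.48 for all genes. Sec61g and Sec61b, the small subunits of the channel, and Ssr4, the delta subunit of the translocon-associated protein complex, were the highest. Sec61g had 438, 313, 337 and 269.5 CPM in secretory-like cells, against 221, 168, 179.6 and 165 CPM in basal-like and 295, 321, 249.8 and 209.7 CPM in ciliated-like cells. Its median log2 ratio over basal-like cells was 0.90, under 2-fold in every library. Sec61b and Ssr4 each had 0.74. Over ciliated-like cells Sec61g had 0.39 and Ssr4 0.74, while Sec61b had -0.29 (0.09 with listed secreted products left out of the total), and the median of the role was 0.45. Ssr1, the alpha subunit of the same complex as Ssr4, went the other way over basal-like cells. It had 33.7, 30.7, 32.2 and 32.7 CPM in secretory-like cells, against 55.5, 45.7, 46.8 and 49.8 CPM in basal-like cells. Ciliated-like cells had 15.97, 10.88, 14.86 and 14.97 CPM of Ssr1, so it was called higher over them, 2.21-fold (95% interval 1.95 to 2.51, summed over libraries). Sec61a1, the pore-forming subunit, had 60.9, 57.3, 63.3 and 61.7 CPM in secretory-like cells, against 54.4, 48.7, 53.9 and 52.7 CPM in basal-like and 30.7, 33.9, 40.7 and 31.9 CPM in ciliated-like cells. The 3 classes did not overlap, with median log2 ratios of 0.23 over basal-like and 0.83 over ciliated-like cells. Ssr2 and Ssr3 lay at -0.35 and -0.29 over basal-like cells and at -0.29 and 0.50 over ciliated-like cells. Srp14, a protein of the signal recognition particle, lay at 0.25 and -0.70.

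Within the signal peptidase, Sec11c parted from the other subunits. Sec11c, a catalytic subunit, had 90.8, 66.8, 85.2 and 117 CPM in secretory-like cells of libraries 1 to 4, against 40.1, 23.0, 28.2 and 42.8 CPM in basal-like cells. The classes did not overlap, and the summed ratio was 2.71-fold (95% interval 2.52 to 2.92). Ciliated-like cells had still more, with 188, 178, 185 and 232 CPM, and the median log2 ratio of secretory-like over ciliated-like cells was -1.08. Sec11c was not called lower there because 1 library reached only -0.98. The other 3 subunits (Spcs1, Spcs2 and Spcs3) had median log2 ratios from -0.08 to 0.20 over basal-like cells. Over ciliated-like cells they were -0.80 for Spcs1, -0.04 for Spcs2 and 0.62 for Spcs3. Spcs1 had 141, 154, 147 and 143 CPM in secretory-like cells, against 141, 150.3, 156 and 168 CPM in basal-like and 225, 302, 269.6 and 237 CPM in ciliated-like cells. Spcs3 had 15.5, 16.96, 14.6 and 14.6 CPM in secretory-like cells, against 20.6, 16.6, 14.7 and 16.4 CPM in basal-like and 9.61, 11.2, 9.23 and 6.998 CPM in ciliated-like cells. Ciliated-like cells were thus the highest of the 3 classes for Spcs1 and the lowest for Spcs3 in every library.

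Of the KDEL receptors, Kdelr2 was called higher over ciliated-like cells. It had 123, 118, 135 and 127 CPM in secretory-like cells, against 116, 132, 112 and 119 CPM in basal-like and 41.8, 46.7, 48.4 and 46.5 CPM in ciliated-like cells. Secretory-like and basal-like cells overlapped, and both lay above all ciliated-like values. The summed ratio over ciliated-like cells was 2.80-fold (95% interval 2.61 to 3.01). Kdelr1 had 99.2, 89.8, 93.02 and 123 CPM in secretory-like cells, against 95.8, 84.9, 83.2 and 123 CPM in basal-like and 86.6, 100.1, 97.4 and 98.9 CPM in ciliated-like cells. Its median log2 ratio was 0.06 over either class.

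Several of these ratios changed with the cluster that stood for the other class. Basal-like cluster 3 had 2356 CPM of immediate early transcripts, against 7438 and 6772 CPM in the other basal-like clusters. Set against that cluster alone, Creb3l1 and Sec11c were still called higher in secretory-like cells, with median log2 ratios of 1.48 and 1.17, where 2.91% of all genes were. Ddit3 had a median of -1.35 and a weakest value of -0.89, and 0 members were called lower, against 3.93% of all genes. Dnajb9 had -0.03, Hspa5 -0.21 and Herpud1 -0.35, so the medians of these 3 genes were within 0.35 log2 of that cluster. Set against ciliated-like cluster 14 alone, the deepest, with a median of 7480 UMIs, Ern2 (2.70), Creb3l1 (1.88), Dnajb9 (1.63) and Kdelr2 (1.35) were called higher, where 4.44% of all genes were. Creld2 (-1.78) was called lower, where 19.3% of all genes were, while Ssr1 (0.96) and Ddit3 (-1.25) were each under 2-fold in at least 1 library. Against the same cluster Sec11c had a median of -0.72, Sdf2l1 -0.44, Sec61b 0.12 and Pdia4 -0.83. These 2 comparisons were chosen after the data were seen.

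Of 100 further genes of the pathway, 99 were measured and 98 passed the UMI minimum. Over basal-like cells, 4 were called higher in secretory-like cells and 1 lower, beside 3.24% and 9.15% of all genes. The higher ones were Agr2, a disulfide isomerase needed for mucin production (median log2 ratio 2.96), Sec24d, a cargo adaptor of COPII vesicles (1.89), Kdelr3, a further KDEL receptor (1.75), and Edem2, a mannosidase of the degradation pathway (1.04). The lower one was Atf3 (-2.76), a stress-induced factor that is also counted among the immediate early genes here. Over ciliated-like cells, 10 were called higher and 4 lower, beside 4.45% and 21.6% of all genes. The list of stress sensors and their targets, with 14 genes, held 5 of the 10 and 2 of the 4 (Atf3 and Bloc1s1). Its higher ones were Eif2ak3, which encodes PERK (1.58), Chac1 (3.30), Trib3 (2.99), Asns (2.39) and Sesn2 (2.30). Ero1a, the oxidase that recharges disulfide isomerases, had 2.60, Pdia5 1.90, Srpr 1.70, Sec24a 1.35 and Surf4 1.17. The lower ones were Agr3 (-6.39), which is known from ciliated airway cells, Atf3 (-3.02), Cnpy3 (-1.89) and Bloc1s1 (-1.24). The median over the 98 genes was 0.16 over basal-like and 0.13 over ciliated-like cells.

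Within the secretory-like class, few genes of any kind reached a call, so the absence of calls says little about the members. Tff2-positive cells, with at least 3 UMIs of the trefoil factor Tff2, which marks goblet-like cells, numbered 474 of 6129 (7.73%, exact 95% interval 7.08 to 8.43), against 0.0594% of basal-like and 0.294% of ciliated-like cells. They had a median of 13986.5 UMIs, against 10874 in other secretory-like cells. Between them 0 of 38 members were called in either direction, where 0.174% of 10943 genes were called higher and 0.247% lower. Creb3l1 had the largest median log2 ratio, 0.73, with a range from 0.18 to 1.65, on 93 UMIs in Tff2-positive cells and 568 in the others. Ern2 followed with 0.55 (-0.08 to 0.73) and Sdf2l1 with 0.43 (-0.58 to 0.95), each with both signs. Sec11c was higher in all 4 libraries, with 0.36 (0.31 to 0.68). Creb3l1 and Sec11c were also the 2 members higher in all 4 libraries under all 3 totals, where 3.5% of all genes were, and Canx was the 1 member lower (13.7% of all genes). By any size, 7 members were higher in all 4 libraries and 2 were lower, against 9.49% and 15.4% of all genes. The members' median was 0.10 and that of all genes -0.05. Heat shock transcripts (Hspa1a, Hspa1b, Hspb1, Dnajb1, Hsph1 and Cryab) stood at 1571 CPM in Tff2-positive and 3381 CPM in other secretory-like cells, and their part was not tested.

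Secretory-like cells were also split by their main secretoglobin. Cells with more Scgb3a1 than Scgb3a2 UMIs numbered 3323, those with more Scgb3a2 numbered 2783, and 23 had equal counts. Again 0 members were called in either direction, where 0.274% of 10941 genes were called higher and 0.503% lower. Ddit3 had the largest difference, with a median log2 ratio of -0.76 (-0.95 to -0.56), followed by Ern2 with 0.47 (0.14 to 1.15), Atf6 with -0.39 (-0.53 to -0.19) and Herpud1 with -0.31 (-0.47 to -0.03). By any size, 8 members were higher in all 4 libraries in Scgb3a1-high cells and 11 were lower, against 8.42% and 38.6% of all genes. Under all 3 totals, Ssr4 and Sec11c were higher (5.0% of all genes) and Atf6, Ddit3 and Spcs1 lower (25.4% of all genes). The members' median was -0.05 and that of all genes -0.14. Heat shock transcripts stood at 2786 CPM in Scgb3a1-high and 3718 CPM in Scgb3a2-high cells, and their part was not tested.

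**Figure D5:**
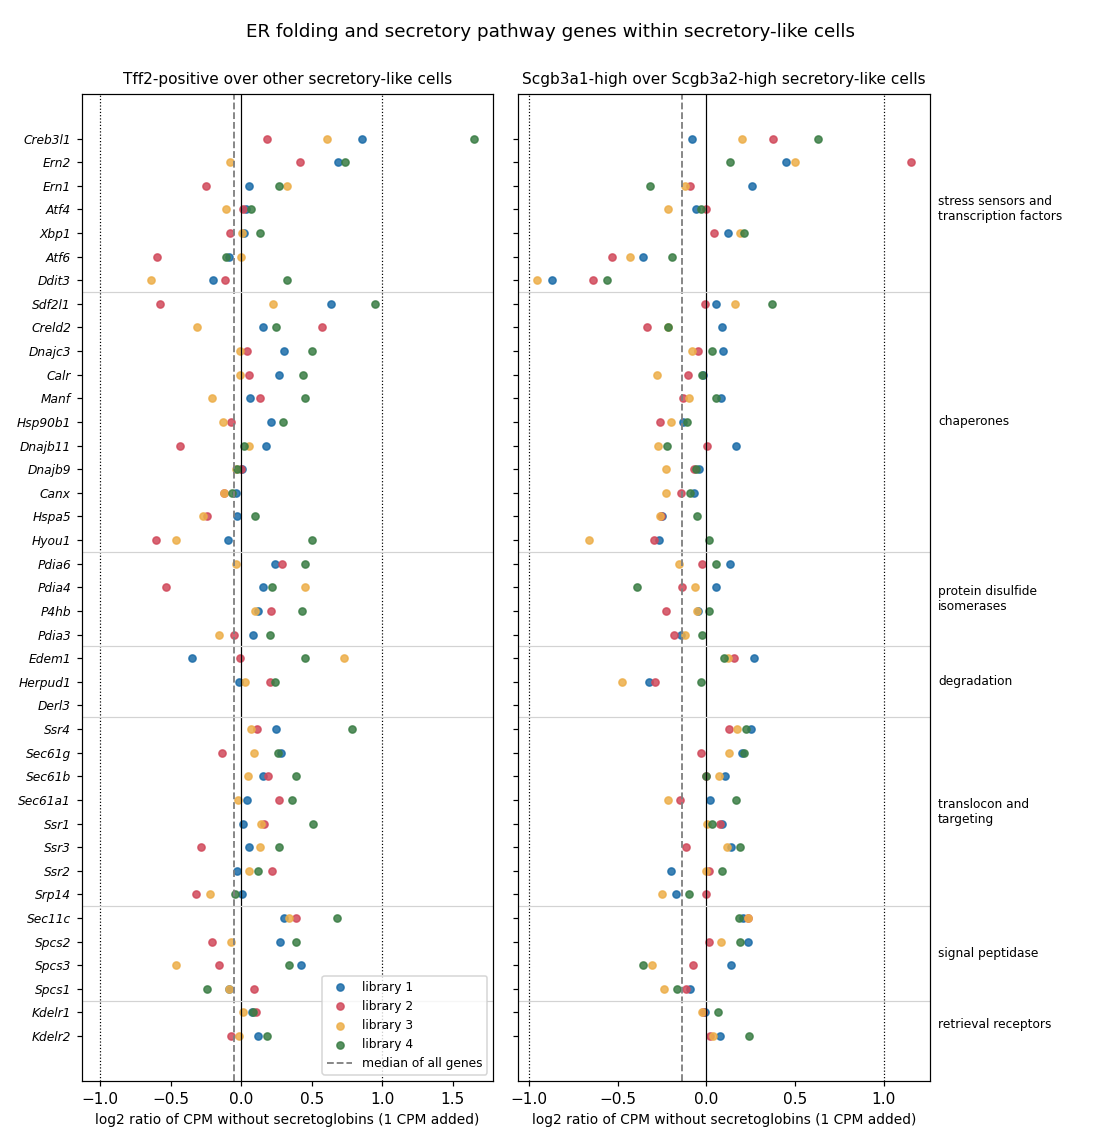
Log2 ratio of Tff2-positive over other secretory-like cells (left) and of Scgb3a1-high over Scgb3a2-high secretory-like cells (right) on the x axis for each gene (y axis, grouped by role), with 1 point for each library. Lines are as in the plot of members by class. No gene has all 4 points beyond a 2-fold line; Creb3l1 has a median of 0.73 in the left panel and Ddit3 of -0.76 in the right panel.

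The secretory-like class was also taken cluster by cluster, and the summed levels of Creb3l1 and Ddit3 differed between the 4 clusters. Cluster 6 was led by Tff1, Tff2, Retnla and Bpifb1, cluster 5 by Ces1f, Sftpb and Ltf, cluster 9 by Lyz1, Bpifa1 and Dmbt1, and cluster 7 by the heat shock genes Hspa1a and Hspa1b beside Sftpb, with 1011 of its 1789 cells in library 3. Each was set against the other 3, and 0 members were called in any. Of all genes, 0.631, 0.146, 0.146 and 0.0548% were called higher in clusters 5, 6, 7 and 9 in that comparison, and 0.292, 0.548, 0.247 and 0.283% lower. Creb3l1 was at 8.46, 12.3, 15.2 and 5.80 CPM in clusters 5, 6, 7 and 9, summed over libraries. Ddit3 was at 19.7, 9.47, 20.1 and 10.6 CPM in the same order. The clusters were spread unequally over the libraries, so these sums mix cluster with library. Cluster 9, for example, had 221, 365, 124 and 139 cells in libraries 1 to 4. Over basal-like cells Ddit3 was called lower in all 4 clusters, Creb3l1 was called higher in clusters 5, 6 and 7, and Sec11c in clusters 6, 7 and 9. Dnajb9 was called lower in cluster 9 (median log2 ratio -1.58). Of all genes, 3.13, 3.36, 3.23 and 3.03% were called higher over basal-like cells in clusters 5, 6, 7 and 9, and 6.93, 13.2, 9.45 and 10.5% lower.

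Libraries were compared within a class by the ratio of the highest to the lowest, called where it reached 2-fold with counting intervals apart and at least 100 UMIs. In basal-like and in ciliated-like cells 0 of 36 members were called, where 8.66% and 6.4% of all genes were. Secretory-like cells were compared by cluster, because their clusters made up unequal parts of the libraries. In cluster 5 Ern2 and Creb3l1 were called, 2 of 38 members, where 9.55% of genes were. Ern2 had 2.72, 3.90, 7.10 and 8.07 CPM there in libraries 1 to 4. In cluster 6 Sdf2l1 was called, with 21.34, 12.03, 13.96 and 29.38 CPM (8.37% of genes), and in cluster 7 Ern2, with 2.75, 6.55, 8.69 and 6.57 CPM (6.14%). Library 1 had the lowest Ern2 in both clusters, on 240 cells in cluster 5 and 196 in cluster 7. In cluster 9 Ern1, Ddit3 and Pdia6 were called (7.63% of genes). Ddit3 had 10.5, 12.4, 14.5 and 2.60 CPM there, the last on 139 cells. With 1 library for each genotype and no link between them, library and genotype cannot be told apart.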

How the data were processed

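The authors deposited raw UMI counts per gene and cell barcode in 1 matrix for all 4 libraries. It was written by Cell Ranger 6.0.1, per the file headers, and the build was GRCm39, per the submitters' processing notes. For the annotation, the release is not given in the sources used here. Free RNA in droplets can add counts of abundant transcripts to every class, and it was not estimated or removed here.

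A cell needed 300 genes and at most 20% mitochondrial UMIs, which removed 1308 of 21667 barcodes. All had at least 500 UMIs. Automatic doublet calls marked 6, 1, 0 and 2 cells in libraries 1 to 4, taken as a failure, so the highest doublet scores were removed at 0.8% per 1000 cells (116, 125, 410 and 237 cells). Cells were clustered with scanpy 1.11.5 (2000 variable genes without the listed pathway genes, 30 principal components, 15 neighbours, resolution 1). Clusters were named from 22 marker lists, needing 3 markers that were seen in 10% of the cells and exceeded the clusters' 25th percentile by 1 log2 unit. Clusters with markers of several lineages stayed out of all classes. For this rule, basal, hillock, secretory, goblet, gland and alveolar lists counted as 1 lineage. A cluster with both basal and secretory markers was therefore not set aside as mixed. Clusters named from the secretory, goblet, gland or alveolar list formed the secretory-like class. These naming rules were set after the data were seen.

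UMIs were summed per library and class in numpy 2.4.6 and scaled to CPM outside the 34 secretoglobin symbols. Calls and intervals (95%, exact Poisson or binomial, scipy 1.17.1) are described with the results. PCR duplicates are collapsed by UMIs, so intervals cover counting error of molecules only. The calling step was tested on simulated counts. All members are accounted for, and values by library are given for the members of each role with the largest median ratio either way in the comparisons with basal-like, ciliated-like or other secretory-like cells. Xbp1, Ern1, Hspa5 and the 2 single-cluster comparisons were added after their values were seen. The members and lists were chosen with earlier results of these data known. Alternatives were other totals, a mean over cells, thinning to 1000 UMIs, a window of 2000 to 8000 UMIs, a pseudocount of 10 CPM, a fold of 1.5, classes from marker shares, no doublet removal, no UMI minimum and each library left out.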

Additional observations from a re-analysis of the deposited data

Results flagged for a closer look

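In ciliated-like cells, Sec61b stood at 413 CPM in library 2, apart from 344, 335 and 333 CPM in libraries 1, 3 and 4. Its gap to the nearest library was 0.860 of the whole range, above Dixon's 95% critical value for 4 samples, although the highest was only 1.24 times the lowest. Of 110 gene and class combinations examined this was the 1 that stood apart, where chance would give about 1 in 20, or 5.5.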

How the results depend on the processing

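No paired analysis was possible because no replicated groups were compared. Log2 ratios between classes were already taken inside each library. Leaving aside the fold, the UMI minimum and left-out libraries, which cannot move a member's ratio or hardly can, 760 alternative values of 19 named members were computed, of which 684 moved by less than the spread between libraries, 76 moved more and 0 reversed a call. Members called higher over basal-like cells numbered 2, and 1 with all UMIs, with 10 CPM added, with a mean over cells or at 2000 to 8000 UMIs, 0 with thinning (Creb3l1 and Sec11c had medians of 1.81 and 1.37 there), and 6 with secreted products left out or a fold of 1.5. Those lower numbered 1, and 2 with all UMIs or without the heat shock cluster, 4 with a fold of 1.5, and 0 against basal-like cluster 3. Members higher over ciliated-like cells numbered 5, and 3 with all UMIs or thinning, 2 with 10 CPM added, 4 at 2000 to 8000 UMIs, with no doublets removed, without the heat shock cluster or against ciliated-like cluster 14, 6 with a mean over cells, and 7 with secreted products left out or a fold of 1.5. Those lower numbered 2, and 4 with all UMIs, 3 with a mean over cells, thinning or 2000 to 8000 UMIs, 6 with a fold of 1.5 and 1 against ciliated-like cluster 14. In Tff2-positive cells, thinning gave 1 lower call. Leaving out a library gave 2 higher and 1 lower over basal-like cells, 5 to 6 higher and 2 to 3 lower over ciliated-like cells, and 0 within the secretory-like class; without library 4, Ern1 was called higher (lowest log2 ratio 1.12) and Sec11c lower than in ciliated-like cells. The members' share at 2000 to 8000 UMIs was 0.528% in secretory-like and 0.555% in ciliated-like cells; with all UMIs it was 0.418, 0.591 and 0.517%, and without secreted products 0.704, 0.604 and 0.536%, in secretory-like, basal-like and ciliated-like cells. With 1.5-fold between libraries, 5 members were apart in basal-like cells, 7 in ciliated-like cells, and 8, 8, 2 and 6 in clusters 5, 6, 7 and 9. At 2000 to 8000 UMIs, 1 was apart in ciliated-like cells and 2 in cluster 6. Beyond the totals and the fold, whose effect follows from their construction, the cause was not tested. Thinning left out 32 secretory-like, 36 basal-like and 599 ciliated-like cells, and low members such as Ern2, Creb3l1 and Derl3 are limited by depth.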

Other observations

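Other cells of the trachea also carried the 39 genes. As a share of UMIs outside secretoglobins, they took 0.505% in 169 hillock-like cells, 0.603% in 149 proliferating cells and 0.647% in 41 ionocyte-like cells, summed over libraries. In the mixed cluster led by the tuft cell genes Lrmp, Gnat3 and Gng13 the share was 0.617%. This cluster also held secretory and ciliated markers. Sec11c stood at 290 CPM in the tuft-led cluster, against 197 CPM in ciliated-like cells. Creb3l1 stood at 0.623 CPM in hillock-like cells, on 1 UMI.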
